A study of Homo sapiens with 17 samples.

Results

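The epidermal growth factor (EGF) receptor family and its ligands were examined in RNA sequencing counts of Ishikawa cells, a human endometrial adenocarcinoma line of epithelial origin. The set was given by name as 10 genes of the 60662 in the count table, found there by gene symbol. It was chosen with earlier results of these data known. It holds the 4 receptors EGFR, ERBB2, ERBB3 and ERBB4, and the 6 ligands AREG, EREG, HBEGF, TGFA, BTC and NRG1. Receptors of this family are tyrosine kinases that work in pairs. EGFR binds amphiregulin (AREG), epiregulin (EREG), heparin-binding EGF-like growth factor (HBEGF), transforming growth factor alpha (TGFA) and betacellulin (BTC), whereas neuregulin 1 (NRG1) binds ERBB3 and ERBB4. ERBB2 has no known ligand of its own and serves as the partner of the others, and ERBB3 has little kinase activity and signals through its partner. The ligands are made as membrane proteins and are shed by metalloproteases. In the uterus, members of this family take part in communication between epithelium and stroma and in the attachment of the embryo, and AREG is known as a progesterone-responsive gene of the uterine epithelium.

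The data were 17 libraries in 6 groups, each library from a separate culture according to the design text. Control cells received plain medium (n = 3). Nap only cells received the part of the vehicle that the labels call Nap, which they do not define (n = 2). Vehicle control cells received Nap with ethanol, which the labels give as 70% (n = 3). This figure is copied from the labels and is not taken here as the strength in the culture medium. P4 treated cells received Nap with progesterone, with no ethanol named (n = 3). All 3 treatments lasted 24 h, and the labels list several P4 concentrations without tying any to a sample. The last 2 groups received recombinant human PSAT1, a serine biosynthesis enzyme, for 24 h, with P4 in one of them (n = 3 each). For these 6 libraries the labels contradict each other. Those in the count columns named PSAT1_P4 carry titles and treatment labels of PSAT1 alone, and those in the columns named PSAT1 carry titles and treatment labels of PSAT1 with P4. They are called here by their columns, and which of them received P4 is not settled by the labels. Ishikawa cells are a cancer line grown without stroma, which limits them as a model of the endometrium.

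Library totals ran from 4999521 counts in vehicle control replicate 1 to 19704493 in control replicate 2, and 3 counts, the floor used for detection, came to between 0.156 and 0.575 normalized CPM, that is, counts scaled to the size of the library. The floor and all counting intervals cover counting error only. The 7 epithelial markers (EPCAM, KRT8, KRT18, KRT19, CDH1, MUC1 and CLDN4) were above this floor in every library, with a summed level of 968 to 1456 CPM. Leukocyte markers summed to 0.369 to 1.85 CPM and endothelial markers to 0.458 to 1.75 CPM, with CDH5 at 0 in every library. The 6 stromal markers summed to 66.3 to 159 CPM, mostly from COL3A1 (41.8 to 131 CPM) and COL1A1 (20.3 to 33.0 CPM). Of these 6, 3 were above the floor in every library, and DCN and PDGFRB were at 0 in the P4 treated cells and in the PSAT1_P4 columns. The epithelial sum was 968 to 1109 CPM with P4 and 1255 to 1264 CPM in the vehicle control, and the stromal sum was 66.8 to 77.6 CPM with P4 and 71.7 to 94.0 CPM in the vehicle control. By edgeR 5 of 7 epithelial markers were called (1 higher and 4 lower) and 2 of 3 tested stromal markers were called lower with P4. In this comparison 53.0% of all 16540 genes tested were called, 26.6% higher and 26.5% lower. The part of these marker shifts in the results was not tested. Of the 2046 genes that differed by more than 1 on the log2 scale between P4 treated and vehicle control cells, 97.5% had the same sign in the PSAT1_P4 columns relative to Nap only cells and 45.3% in the PSAT1 columns. Expression of GDF15 was 136 ± 18.7 CPM (SD, n = 3) in P4 treated cells, 138 ± 14.9 in the PSAT1_P4 columns and 2.99 ± 0.266 in the PSAT1 columns. By these genes the PSAT1_P4 columns lay with the P4 treated cells and the PSAT1 columns with the cells without P4, whereas the titles assign them the other way around.

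Of the 10 genes, 3 ligands lie near each other on chromosome 4 (GRCh38). EREG is at 4:74365143-74388751 and AREG at 4:74445134-74455009, with 56382 bases between them, both on the plus strand, and BTC is at 4:74744759-74794686 on the minus strand. EGFR is at 7:55019021-55211628 (plus strand), ERBB2 at 17:39687914-39730426 (plus), ERBB3 at 12:56076799-56103505 (plus) and ERBB4 at 2:211375717-212538841 (minus). HBEGF is at 5:140332843-140346631 (minus) and TGFA at 2:70447280-70554193 (minus). Antisense RNA EGFR-AS1, which lies across EGFR, had 0 counts in every library. MIEN1 and PGAP3 overlap the ends of ERBB2 on the other strand and had 12.3 to 17.6 and 7.14 to 12.1 CPM.

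RefSeq promoter windows of 300 bases (250 before to 50 after a gene's start) were matched for 8 of the 10 genes. ERBB3 and NRG1 had no window among those searched, so their promoters were not examined. Windows are printed for the neighbors AREG, which had higher counts with P4, and EREG, which was barely counted, and for EGFR and ERBB4, the 2 receptors with higher counts. They are read on the gene's own strand, 5′ to 3′, from RefSeq on GRCh38.p14. Capitals mark TGTTCT (the core of a steroid receptor element), TGACG or the full cyclic AMP element TGACGTCA, and GGGCGG (the SP1 box), searched on both strands, so a match on the other strand appears as its reverse complement.
AREG, chr4:74444886-74445185, plus strand: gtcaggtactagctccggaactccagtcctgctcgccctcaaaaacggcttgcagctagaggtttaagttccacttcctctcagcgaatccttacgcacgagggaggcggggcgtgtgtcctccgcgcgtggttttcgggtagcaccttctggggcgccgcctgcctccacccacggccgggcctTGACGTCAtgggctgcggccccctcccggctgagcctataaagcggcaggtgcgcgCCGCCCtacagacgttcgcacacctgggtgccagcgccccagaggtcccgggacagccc
EREG, chr4:74364895-74365194, plus strand: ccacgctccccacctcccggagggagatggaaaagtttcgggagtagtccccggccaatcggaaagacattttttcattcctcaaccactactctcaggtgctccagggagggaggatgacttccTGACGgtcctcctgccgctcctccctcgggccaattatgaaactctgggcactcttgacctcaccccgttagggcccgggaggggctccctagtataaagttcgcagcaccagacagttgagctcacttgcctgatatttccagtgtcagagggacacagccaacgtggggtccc
EGFR, first of its windows, chr7:55018767-55019066, plus strand: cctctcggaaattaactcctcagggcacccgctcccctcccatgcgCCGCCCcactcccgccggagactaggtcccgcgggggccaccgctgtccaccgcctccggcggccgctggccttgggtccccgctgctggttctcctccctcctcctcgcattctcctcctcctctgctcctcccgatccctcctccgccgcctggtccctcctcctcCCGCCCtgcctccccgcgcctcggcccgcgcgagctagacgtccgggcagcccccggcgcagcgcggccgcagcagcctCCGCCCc
ERBB4, chr2:212538753-212539052, minus strand: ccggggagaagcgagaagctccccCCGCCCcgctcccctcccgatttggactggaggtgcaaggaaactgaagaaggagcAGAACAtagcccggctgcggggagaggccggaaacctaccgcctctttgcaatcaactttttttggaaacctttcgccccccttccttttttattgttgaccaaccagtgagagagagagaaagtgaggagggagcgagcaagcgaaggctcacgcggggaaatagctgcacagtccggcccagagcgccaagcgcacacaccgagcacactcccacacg
In the AREG window the full TGACGTCA began 65 bases before the start, and the TGACG matches of both strands in this window lie within it. Of the 35116 promoter windows searched, which did not cover every gene, 1.85% held TGACGTCA. The EREG window held a single TGACG, at -125, which 24.6% of windows had on either strand. AREG and EREG both had the TATA box TATAAA, at -29 and -32, as did 11.5% of windows. EGFR had none in this window and held 3 SP1 boxes, where 45% of windows held at least 1. ERBB4 had TGTTCT at -170, on the other strand, as had 14.8% of windows by the search of both strands, and an SP1 box at -226. TGTTCT was also in windows not printed here, in ERBB2 (at -1), the receptor with lower counts with P4, and in another EGFR window (at 19) and a TGFA window (at -46). The windows of AREG, EREG, HBEGF and BTC held none. The letters are a description of the windows and no binding was measured.

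The first comparison asked how P4 changed this family relative to the vehicle control. EGFR, ERBB4, AREG, TGFA and NRG1 rose, ERBB2 fell, and ERBB3, HBEGF and BTC did not pass the test. Of the 9 members tested, 6 were called at an adjusted p under 0.05 (5 higher and 1 lower), where 53.0% of all 16540 genes tested were called, 26.6% higher and 26.5% lower. Taken without direction, the share of members called was not far from that of all genes. By direction, most member calls were higher, where those of all genes were split almost evenly. With 9 members these shares are a description only, and the size of the differences is given gene by gene. The median log2 fold change of the tested members was 0.63, against -0.01 over all genes tested. AREG passed the filter on low counts only through its P4 libraries, since 3 libraries had to reach the cut and only 2 of the vehicle control did. The counts of members called and the median, which includes AREG and leaves out EREG, therefore do not speak for all members.

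**Figure D1:**
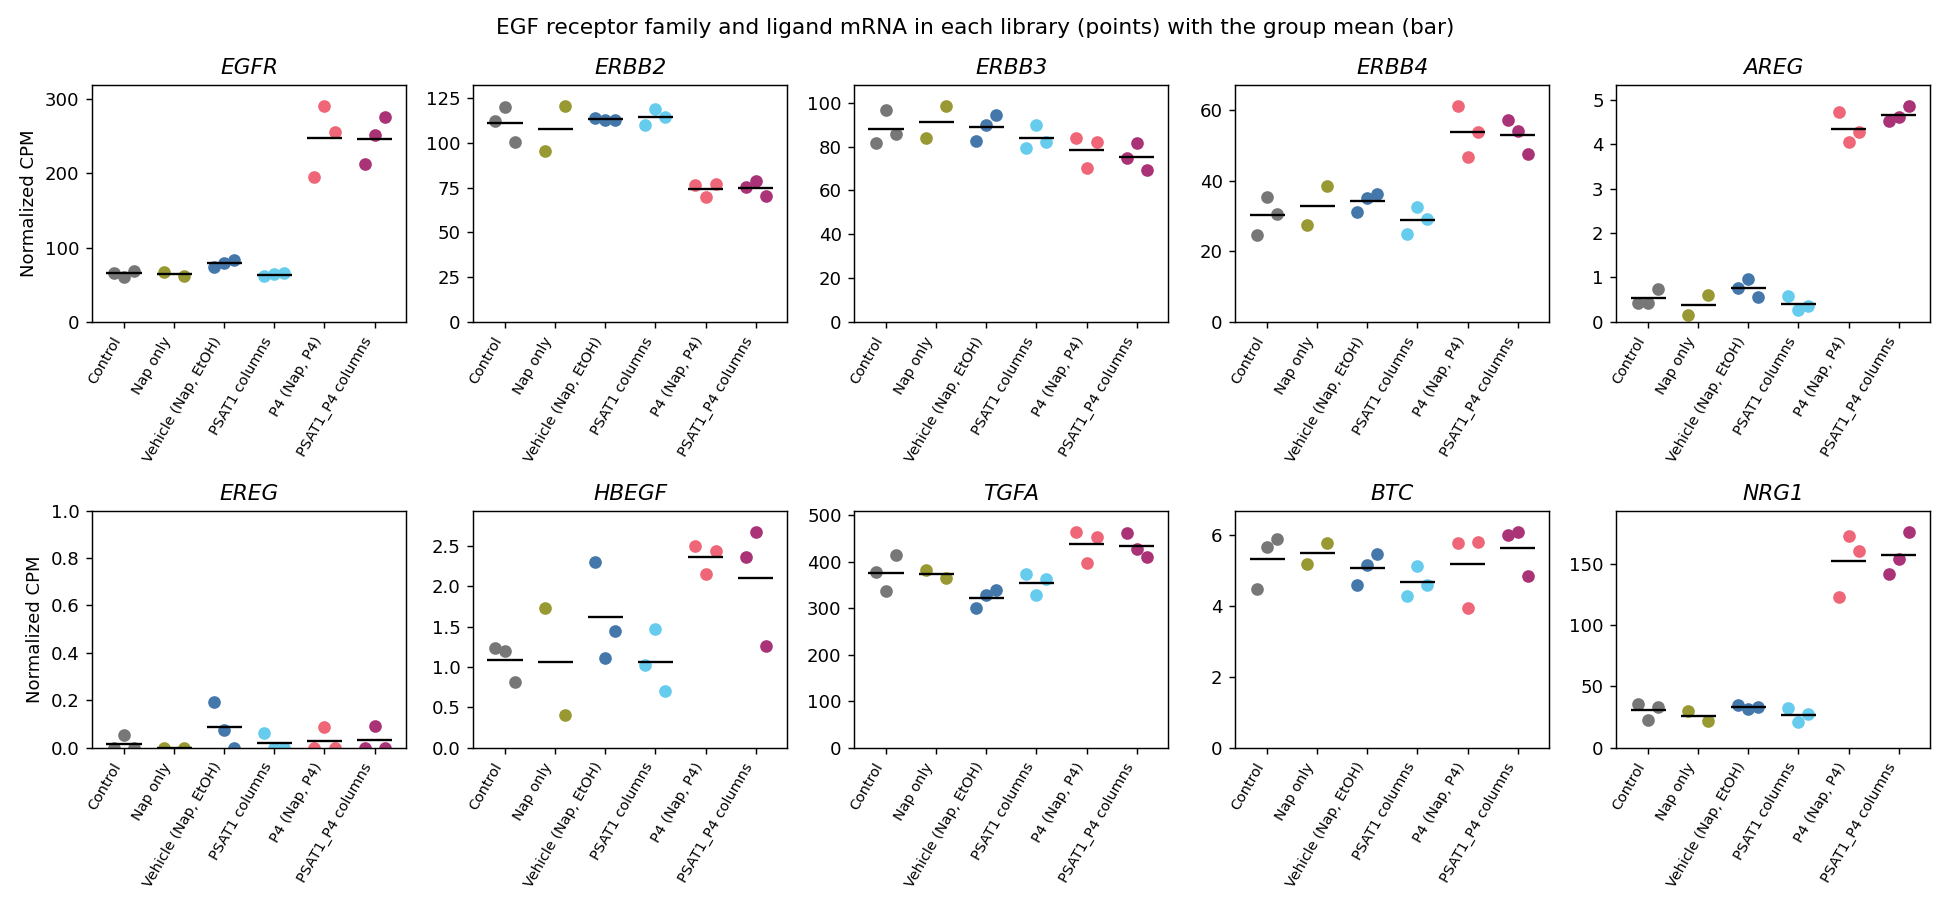
Level of each of the 10 genes in normalized CPM (vertical axes from 0, a scale of its own for each gene) in each of the 17 libraries (points), with the mean of each group (bars). EGFR, ERBB4, AREG and NRG1 were higher, and ERBB2 lower, in the 6 libraries of the P4 and PSAT1_P4 groups than in all 11 others, and EREG had at most 1 count in any library.

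Among the receptors, EGFR showed the widest change. Its level was 74.0, 79.6 and 82.8 CPM in the 3 vehicle control libraries and 195, 290 and 256 CPM in the 3 P4 treated libraries. The groups did not overlap, and the lowest P4 library had more than the highest vehicle library. This was a 3.09-fold difference (log2 fold change 1.63, SE 0.12, edgeR adjusted p = 8.5e-07).

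ERBB2, the receptor without a ligand, moved the other way. It was at 114, 113 and 112 CPM in the vehicle control and at 76.5, 70.0 and 76.8 CPM with P4. All 3 P4 libraries were below all vehicle libraries, with a log2 fold change of -0.62 (SE 0.067, edgeR adjusted p = 1.1e-05). ERBB3, its usual partner for neuregulin signals, was at 82.4, 89.8 and 94.4 CPM in the vehicle control and 84.0, 70.0 and 81.8 CPM with P4. These ranges overlapped, and the log2 fold change of -0.20 (SE 0.085) did not pass the test (edgeR adjusted p = 0.069). The ERBB3 call depended on the scaling and on 1 library, since adjusted p was 0.016 with upper-quartile normalization and 0.0083 without P4 replicate 1.

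ERBB4, the other neuregulin receptor, was at 31.2, 35.1 and 36.3 CPM in the vehicle control and at 61.1, 46.7 and 54.0 CPM with P4. The groups did not overlap. Its log2 fold change was 0.63 (SE 0.11, edgeR adjusted p = 3.4e-04).

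Of the EGFR ligands, AREG had the largest fold and one of the lowest levels. It had 4, 13 and 7 counts in the vehicle control (0.767, 0.959 and 0.564 CPM) and 49, 47 and 56 counts with P4 (4.71, 4.04 and 4.28 CPM). Every P4 library was above every vehicle library. The log2 fold change was 2.46 (SE 0.27, edgeR adjusted p = 1.1e-05), a 5.52-fold difference. AREG entered this test only through its P4 libraries.

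TGFA was the most abundant ligand, and its change was small as a fold. Its level was 300, 328 and 339 CPM in the vehicle control and 464, 397 and 453 CPM with P4. The groups did not overlap, and the log2 fold change was 0.43 (SE 0.075, edgeR adjusted p = 4.6e-04). P4 treated cells did not pass the test for TGFA against the untreated control, as given below.

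HBEGF, which also acts as an attachment factor for the blastocyst, was at 2.30, 1.11 and 1.45 CPM in the vehicle control and at 2.50, 2.15 and 2.44 CPM with P4. Vehicle control replicate 1, the shallowest library with 12 HBEGF counts, lay within the P4 range. The log2 fold change of 0.67 (SE 0.28) did not pass the test (edgeR adjusted p = 0.064), and without that library it was 0.88 (adjusted p = 0.026). BTC was at 4.60, 5.16 and 5.48 CPM in the vehicle control and 5.77, 3.95 and 5.80 CPM with P4, with overlapping ranges and a log2 fold change of -0.01 (SE 0.19, edgeR adjusted p = 0.97). EREG had 0 or 1 count in each of the 17 libraries, which is under the floor of 3 counts, and was not tested in any comparison. Its presence could not be told from its absence at this depth.

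NRG1, the ligand of ERBB3 and ERBB4, was at 35.1, 31.3 and 33.5 CPM in the vehicle control and at 123, 173 and 160 CPM with P4. The P4 libraries were all above the vehicle libraries, and the 4.56-fold difference (log2 fold change 2.19, SE 0.11) had an edgeR adjusted p of 3.4e-08. Counts were taken per gene, so the isoforms of NRG1 and of the receptors cannot be told apart.

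**Figure D2:**
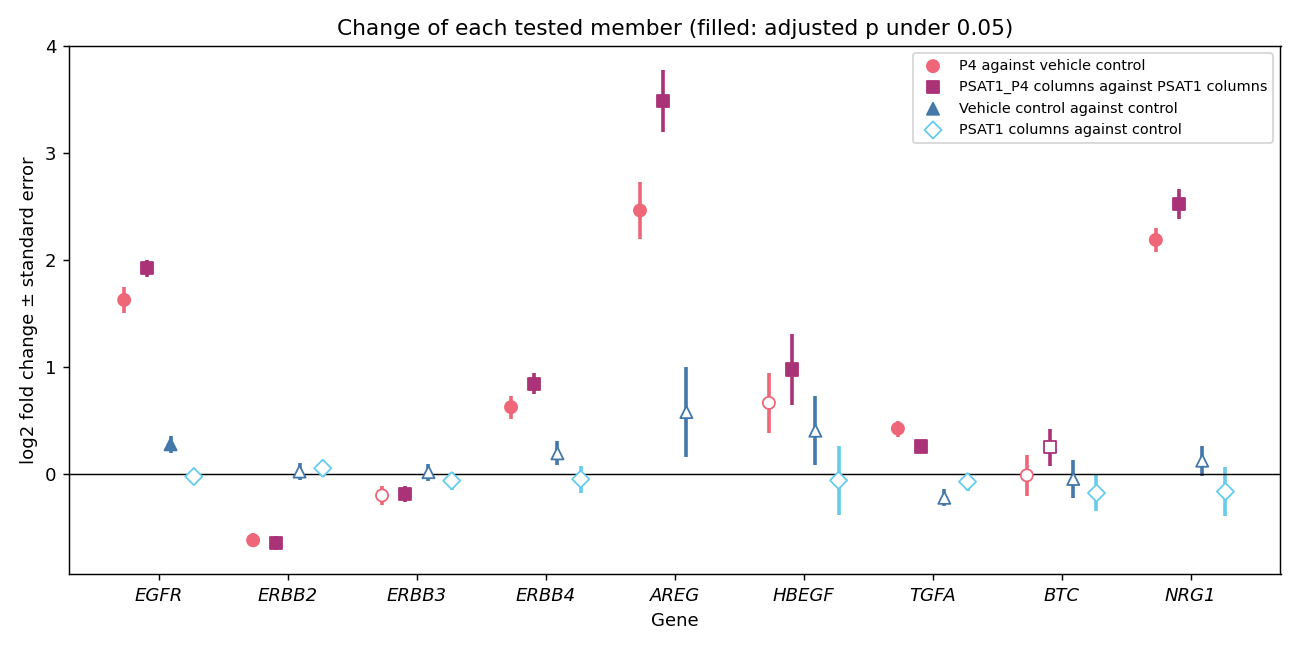
log2 fold change (vertical axis) with its standard error (bars) of the 9 members tested, for P4 against vehicle control, PSAT1_P4 columns against PSAT1 columns, vehicle control against control, and PSAT1 columns against control. Filled symbols have an edgeR adjusted p under 0.05. AREG, NRG1 and EGFR lie highest in the first 2 comparisons (2.46, 2.19 and 1.63 for P4 against vehicle control), ERBB2 lies below 0 in both, and AREG was not tested in the last.

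To compare genes with each other, levels were expressed per length as RPKM (normalized CPM divided by the exon length in kilobases). In the vehicle control ERBB2 and ERBB3 were the main receptor transcripts, with 36.9 ± 1.69% and 33.1 ± 0.972% of the summed RPKM of the 4 receptors (SD, n = 3), and EGFR had 21.2 ± 0.379%. With P4, EGFR had 49.3 ± 6.97%, ERBB3 22.0 ± 3.17% and ERBB2 18.2 ± 1.80%, so that EGFR came first. EGFR took 42.2 to 56.1% of the receptor RPKM in the P4 libraries and 20.8 to 21.5% in the vehicle libraries, and these ranges did not overlap. ERBB4 had the smallest share in both groups, 8.84 ± 0.355% and 10.5 ± 2.02%. The summed receptor RPKM was 29.7 ± 1.15 in the vehicle control and 39.8 ± 2.40 with P4.

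Per length, TGFA made up most of the ligand RNA. It had 91.8 ± 0.726% of the summed RPKM of the 6 ligands in the vehicle control and 82.4 ± 2.41% with P4 (n = 3 each). NRG1 had 4.17 ± 0.426% and 12.6 ± 2.72%, and AREG 0.658 ± 0.179% and 2.47 ± 0.131%. AREG therefore stayed a minor ligand transcript even with its larger fold. Summed ligand RPKM was 70.7 ± 3.82 in the vehicle control and 107 ± 6.14 with P4. In the same groups TGFA was at 64.9 ± 3.99 and 88.2 ± 7.22 RPKM and NRG1 at 2.94 ± 0.169 and 13.4 ± 2.30 RPKM, so TGFA rose in level while its share fell. RNA levels do not give the amount of receptor or shed ligand protein.

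**Figure D3:**
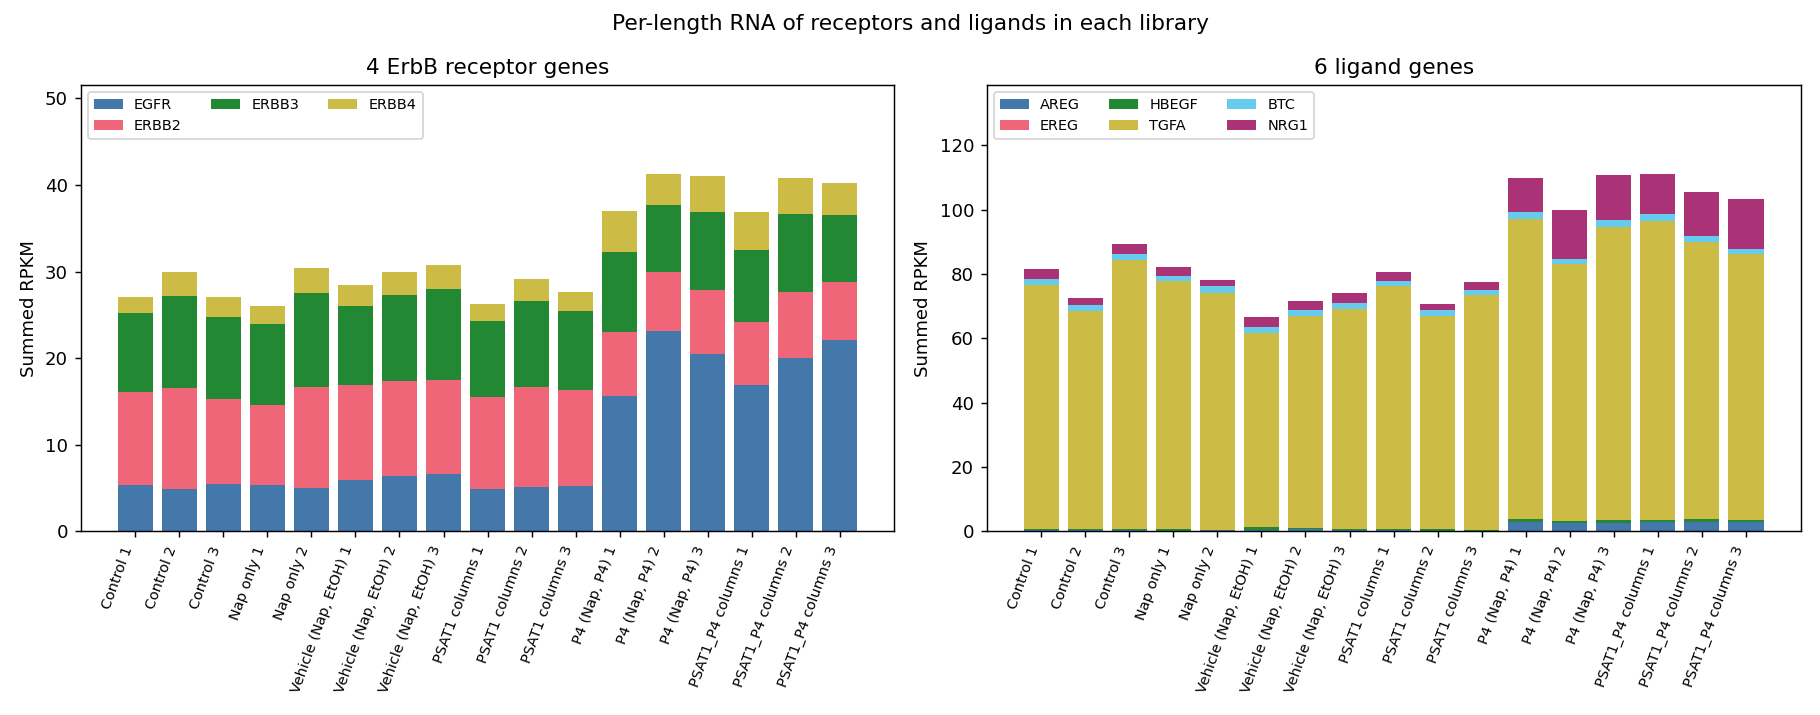
Summed RPKM (vertical axes) of the 4 receptors (left) and the 6 ligands (right) in each of the 17 libraries, stacked by gene. EGFR fills 42.2 to 56.1% of the receptor bar in the P4 libraries against 20.8 to 21.5% in the vehicle libraries, and TGFA fills most of every ligand bar.

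Next, vehicle control was compared with control to measure the effect of the vehicle. EGFR was the only 1 of the 9 members tested that was called, where 22.6% of all 16673 genes were. It was at 66.1, 60.8 and 69.0 CPM in the control, below all 3 vehicle libraries given above, with a log2 fold change of 0.28 (SE 0.077, edgeR adjusted p = 0.012). This call was lost without vehicle control replicate 2 (adjusted p = 0.066) or 3 (adjusted p = 0.10) and with all groups in one fit (adjusted p = 0.089). TGFA was at 378, 337 and 415 CPM in the control, with the vehicle log2 fold change at -0.22 (SE 0.080, edgeR adjusted p = 0.051). Only control replicate 2 lay within the vehicle range, and without it TGFA was called at -0.29 (adjusted p = 0.0011) and ERBB4 at 0.34 (adjusted p = 0.011).

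Because ethanol is named for the vehicle control but not for the P4 treated cells, P4 was also compared with the untreated control. Both comparisons share the P4 libraries. Of 9 members tested 6 were called, where 54.8% of all 16620 genes were. EGFR rose (log2 fold change 1.90, SE 0.12), as did NRG1 (2.30, SE 0.17), ERBB4 (0.81, SE 0.13) and AREG (3.04, SE 0.29), and ERBB2 fell (-0.60, SE 0.096). HBEGF was at 1.24, 1.20 and 0.818 CPM in the control, below each P4 library, and was called here (log2 fold change 1.07, SE 0.27, edgeR adjusted p = 0.0027). TGFA overlapped between P4 and control and was not called (log2 fold change 0.20, SE 0.10, edgeR adjusted p = 0.11). It was called without control replicate 3 (adjusted p = 0.047), without P4 replicate 2 (0.042) and with all groups in one fit (0.018). AREG again passed the filter only through the P4 libraries, and its control libraries had 8, 8 and 10 counts.

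Nap alone was compared with control in 2 against 3 libraries. None of the 8 members tested was called by edgeR, and 0 of 17166 genes were (0.00%), with 217 genes at an unadjusted p under 0.05 and 1 gene called by DESeq2. The largest difference among the members was that of NRG1, with a log2 fold change of -0.23 (SE 0.23), where the Nap only libraries had 29.9 and 21.6 CPM and the control 35.6, 22.5 and 33.1 CPM.

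The libraries of the PSAT1 columns were then compared with control. None of 8 members tested was called by edgeR, and 0 of 17214 genes were (0.00%), with 1004 genes at an unadjusted p under 0.05 and 0 called by DESeq2 (577 at an unadjusted p under 0.05). EGFR was at 61.4, 64.3 and 65.4 CPM, ERBB2 at 110, 119 and 115 CPM, and NRG1 at 32.1, 20.6 and 27.8 CPM in these columns. Each of these ranges overlapped with that of the control. The log2 fold changes were -0.02 for EGFR (SE 0.079), 0.06 for ERBB2 (SE 0.079) and -0.16 for NRG1 (SE 0.23), and the largest in size was that of BTC at -0.17 (SE 0.17). AREG had 9, 4 and 6 counts and was not tested.

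In the PSAT1_P4 columns, EGFR was at 212, 251 and 276 CPM, ERBB4 at 57.2, 54.1 and 47.7 CPM, AREG at 4.52, 4.61 and 4.85 CPM and NRG1 at 141, 154 and 176 CPM. ERBB2 was at 75.2, 78.6 and 70.1 CPM. None of these overlapped with the PSAT1 columns, where ERBB4 was at 25.0, 32.7 and 29.3 CPM and AREG at 0.574, 0.267 and 0.354 CPM. Between the 2 sets, 8 of 9 members tested were called (6 higher and 2 lower in the PSAT1_P4 columns), where 62.3% of all 16586 genes were, 30.7% higher and 31.6% lower. The log2 fold changes were 1.92 for EGFR (SE 0.082), 2.52 for NRG1 (SE 0.14), 3.49 for AREG (SE 0.29), 0.85 for ERBB4 (SE 0.098) and -0.64 for ERBB2 (SE 0.067), each called by edgeR. AREG passed the filter only through the PSAT1_P4 columns, and so did HBEGF.

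TGFA was at 461, 427 and 411 CPM in the PSAT1_P4 columns and 375, 329 and 362 CPM in the PSAT1 columns, without overlap and with a log2 fold change of 0.26 (SE 0.064, edgeR adjusted p = 0.0017). HBEGF was called at 0.98 (SE 0.33, edgeR adjusted p = 0.014) and ERBB3 at -0.18 (SE 0.074, edgeR adjusted p = 0.041), though the ranges of both overlapped. The HBEGF call was lost without any one of PSAT1_P4 columns replicate 1 or 2 or PSAT1 columns replicate 3 (adjusted p = 0.054, 0.10 and 0.078). The ERBB3 call was lost with DESeq2 (adjusted p = 0.095) and without PSAT1_P4 columns replicate 1 or 3 or PSAT1 columns replicate 2 or 3 (adjusted p = 0.089, 0.21, 0.20 and 0.077). BTC was not called (log2 fold change 0.25, SE 0.17, edgeR adjusted p = 0.21).

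Against the control, 7 of 9 members tested were called in the PSAT1_P4 columns, where 60.2% of all 16209 genes were. They were EGFR (log2 fold change 1.90), NRG1 (2.36), AREG (3.15), ERBB4 (0.80), HBEGF (0.92), ERBB2 (-0.59) and ERBB3 (-0.24). AREG passed the filter only through the PSAT1_P4 columns. The ERBB3 call (edgeR adjusted p = 0.021) was lost without control replicate 2 or PSAT1_P4 columns replicate 1 or 3 (adjusted p = 0.11, 0.056 and 0.14). The HBEGF call (edgeR adjusted p = 0.012) was lost without control replicate 3 or PSAT1_P4 columns replicate 2 (adjusted p = 0.059 and 0.11).

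Relative to P4 treated cells, none of 9 members tested was called in the PSAT1_P4 columns by edgeR, and 0 of 15621 genes were (0.00%), with 199 at an unadjusted p under 0.05 and 0 called by DESeq2 (50 at an unadjusted p under 0.05). The log2 fold changes were -0.01 for EGFR (SE 0.13), 0.04 for NRG1 (SE 0.12), 0.09 for AREG (SE 0.17) and -0.17 for HBEGF (SE 0.28), the last being the largest in size. The PSAT1 columns differed from P4 treated cells in 7 of 9 members, where 57.1% of all 16882 genes did. EGFR (log2 fold change -1.93), NRG1 (-2.48), AREG (-3.39), ERBB4 (-0.87), HBEGF (-1.14) and TGFA (-0.28) were lower and ERBB2 (0.64) was higher in the PSAT1 columns, and AREG was tested here only through its level in the P4 libraries.

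Whether the difference between the PSAT1_P4 and PSAT1 columns departed from that between P4 and Nap only cells was tested by an interaction term. Coded by column names, none of 9 members was called by edgeR, with log2 differences of 0.01 for EGFR (SE 0.19), -0.03 for NRG1 (SE 0.27) and 0.36 for BTC (SE 0.27), the largest in size. Of all 17738 genes 1 was called (0.00564%), AC104306.1, named after its value was seen, with 680 at an unadjusted p under 0.05 and 1 called by DESeq2. Coded by the titles, with the columns exchanged, 8 of 9 members were called, where 12040 of all 17738 genes were. EGFR then had a log2 difference of -3.85. The result of this test therefore depended on which label was used.

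Over the 6 libraries with P4 in the column name and the 11 others, the lowest, median and highest EGFR levels were 195, 253 and 290 CPM against 60.8, 66.1 and 82.8 CPM. For NRG1 they were 123, 157 and 176 CPM against 20.6, 31.3 and 35.6 CPM, and for AREG 4.04, 4.56 and 4.85 CPM against 0.157, 0.564 and 0.959 CPM. In order of mean EGFR level, P4 treated cells and the PSAT1_P4 columns came first and overlapped, the vehicle control followed without overlap, and control, Nap only and the PSAT1 columns came last and overlapped with each other. For ERBB2 the 4 groups without P4 in the column name overlapped with their neighbors, and so did the 2 groups with it, with a gap in between.

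Genes with a pattern most like that of a member were sought by Pearson's r of log2 CPM over the 17 libraries, for the 3 members that varied most between groups. For EGFR these were JMY (r = 0.997), ZNF641 (0.997) and DUSP16 (0.997), for NRG1 they were SHISA3, KLHL8 and TMEM268 (0.995 each), and for AREG they were CACNA2D1 (0.982), RC3H2 (0.979) and PDLIM3 (0.976). The libraries fall into the 2 sets described above, so that r does not tell the gap between the sets from variation within them, and the genes compared share library depth and composition.

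Other genes of the pathway were followed in lists of what surrounds the receptors, in P4 treated against vehicle control cells. These lists were chosen with earlier results of these data known. Their counts and medians, set beside those of all genes, are a description and no test of the pathway as a whole. Shedding genes were called in 9 of 9 tested (of 10 in the list), 7 higher and 2 lower, where 26.6% and 26.5% of all genes were called in each direction, and their median log2 fold change was 0.62 against -0.01 over all genes. ADAM17, the main sheddase of AREG, TGFA and HBEGF, rose from 82.3 ± 4.20 to 152 ± 27.8 CPM (n = 3, log2 fold change 0.86), and ADAM10, the main sheddase of BTC and EGF, from 283 ± 13.8 to 439 ± 8.93 CPM (0.62). RHBDF1, an inactive rhomboid that helps ADAM17 reach the cell surface, rose by 1.24 on the log2 scale, and the rhomboid protease RHBDD1 by 0.88. The list also holds TIMP3, an inhibitor of ADAM17, which rose from 0.562 ± 0.177 to 2.32 ± 0.585 CPM (log2 fold change 1.92, SE 0.34). This was the largest change of the list, with 2 to 10 counts in the vehicle control libraries. TIMP3 passed the filter on low counts only through its P4 libraries, so the calls and median of this list do not speak for all its genes. Lower were ADAM15 (-0.26) and RHBDF2 (-0.42).

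Of the ligands outside the set, NRG4, an ERBB4 ligand, fell from 30.2 ± 2.87 to 8.12 ± 3.30 CPM (log2 fold change -1.95, SE 0.20), opposite in direction to NRG1. EGF was at 5.20 ± 0.811 and 6.73 ± 1.37 CPM and did not pass the test (log2 fold change 0.39, edgeR adjusted p = 0.11). EPGN, NRG2 and NRG3 were too low to be tested. Hence 1 of 2 tested ligands of 5 in the list was called, with a median of -0.78.

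Receptor adaptors and effectors were called in 12 of 18, 8 higher and 4 lower, with a median of -0.01. In this comparison 53.0% of all genes were called, 26.6% higher and 26.5% lower. GAB2, a docking protein that links receptors to PI3 kinase, rose from 17.1 ± 2.27 to 64.8 ± 14.4 CPM (log2 fold change 1.88, SE 0.16). PIK3CA, a catalytic subunit of PI3 kinase, rose by 0.95, NCK1 by 0.70 and SOS2 by 0.66 on the log2 scale. Among the lower were HRAS (-0.51), VAV3 (-0.48) and PIK3R1 (-0.30), while GRB2, the core adaptor, was not called (-0.13, edgeR adjusted p = 0.11).

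Genes of receptor feedback and degradation were called in 12 of 15 tested (of 16), 10 higher and 2 lower, with a median of 0.37, where 26.6% of all genes were called higher and 26.5% lower. ERRFI1, which binds and inhibits the EGFR kinase, rose from 23.1 ± 3.30 to 111 ± 17.8 CPM (log2 fold change 2.23, SE 0.13, edgeR adjusted p = 6.6e-08). RNF41, a ubiquitin ligase for ERBB3, rose from 63.8 ± 3.17 to 147 ± 4.15 CPM (1.20, SE 0.068), and SH3KBP1, a CBL partner in receptor endocytosis, rose by 0.80. UBASH3B, which counters CBL, fell from 85.8 ± 5.64 to 32.7 ± 11.3 CPM (log2 fold change -1.41, SE 0.20), and LRIG3 fell too (-0.45).

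Output genes of the ERK pathway were called in 13 of 14, 10 higher and 3 lower, with a median of 0.77, where 26.6% of all genes were called higher and 26.5% lower. Only 13 of these 14 genes passed the filter on low counts in vehicle control against control. The remaining gene passed here only with its P4 libraries, so these counts do not speak for the whole list. ETV5, a transcription factor induced by ERK signals, rose from 39.8 ± 5.43 to 140 ± 8.33 CPM (log2 fold change 1.78, SE 0.092). The feedback inhibitors SPRY4 (1.50), SPRY2 (1.10) and DUSP6 (0.75) rose as well. CCND1, the cyclin of G1 phase, fell from 264 ± 0.904 to 119 ± 19.3 CPM (-1.16, SE 0.098), PHLDA1 fell (-0.94) and so did EGR1 (-0.41). ERK activity itself was not measured, and these genes also answer to other signals. In vehicle control against control, where 22.6% of all genes were called, 7 of 13 tested ERK output genes were called, with a median of 0.30. DUSP5, an ERK phosphatase, rose there from 1.89 ± 0.217 to 10.2 ± 2.30 CPM (log2 fold change 2.46, SE 0.20), and to 29.6 ± 10.7 CPM with P4 (1.47, SE 0.28, against vehicle control). Of the other lists, 1 of 8 shedding genes, 5 of 18 adaptors, 4 of 15 feedback genes and 0 of 2 ligands were called with the vehicle. In the PSAT1 columns against control, 0 genes of any of these lists were called by edgeR, where 1004 of all genes had an unadjusted p under 0.05 and DESeq2 called 0.

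**Figure D4:**
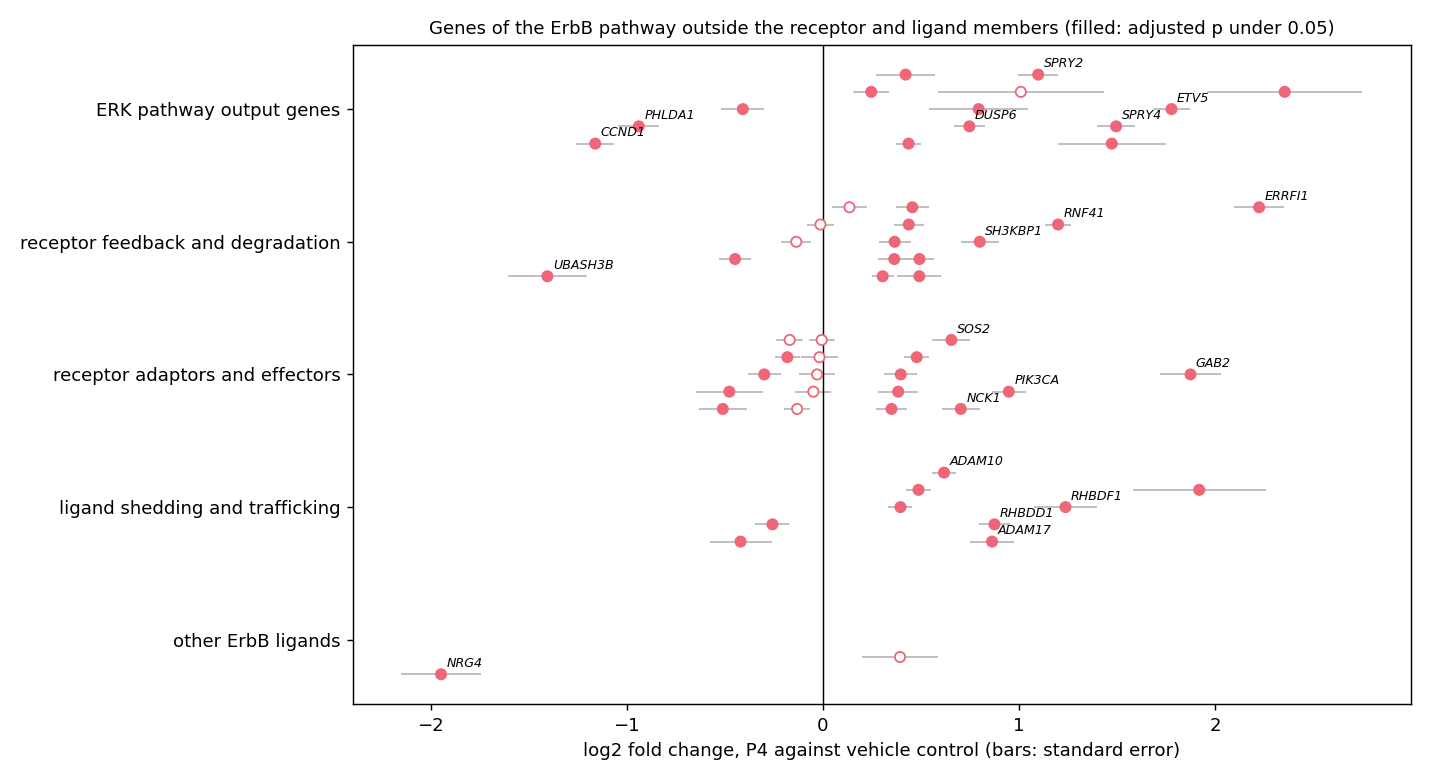
log2 fold change of the tested genes of 5 pathway lists in P4 treated against vehicle control cells (horizontal axis, bars are standard errors), with 1 point for each gene, the lists stacked from bottom to top, and the genes named in the text by rule written beside their points. Filled points have an edgeR adjusted p under 0.05. ERRFI1 (2.23), GAB2 (1.88) and ETV5 (1.78) lie far to the right, and NRG4 (-1.95) farthest to the left.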

How the data were processed

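Total RNA of Ishikawa cells was sequenced by the authors as single-end stranded libraries. Reads were trimmed with Cutadapt, filtered by quality, aligned uniquely with Subread and counted with featureCounts on GENCODE release 31, and the authors deposited raw counts per gene. Tool versions and the strand setting are not given in the sources used here. Unique alignment can lower counts of genes with near-identical copies.

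Gene names came from GENCODE 29 on GRCh38 (58542 of 60662 genes matched by ID, 2054 from a table of names only, and 66 without a name). Levels are CPM with TMM factors over 17 libraries, and RPKM uses summed exon length of GENCODE 29. Each comparison was fitted in edgeR 4.0.16 (R 4.3.3) on the counts of the groups compared (the interaction on 4 groups), with filterByExpr (minimum count 10), TMM, robust quasi-likelihood fits and Benjamini-Hochberg adjustment over all genes tested. Standard errors are the log2 fold change over the square root of F. DESeq2 1.42.0, other scalings, filters, a replicate block and leaving out each replicate were alternatives. No 2 replicates agreed within sampling noise (chi-square per degree of freedom 1.54 to 20.6 over replicate pairs). The number of count columns not used was 0.

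The members and lists were chosen with earlier results of these data known. Named are the 10 members and, of each list, at most 4 called genes in each direction past 0.58 on the log2 scale, ordered by p. Other list genes in the text were named after their values were seen.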

Additional observations from a re-analysis of the deposited data

How the results depend on the processing

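In P4 against vehicle control, the members called were 6 as reported and between 5 and 7 under the other settings except a fold change limit. No called member changed direction under an alternative in which it was tested, and AREG could not be tested with at least 10 counts in every sample in the comparisons that called it. With a required absolute log2 fold change above 1, the members called were 3 in P4 against vehicle control, 0 in vehicle control against control, 4 in P4 against control, 3 in the PSAT1_P4 columns against control, 3 against the PSAT1 columns, and 4 for the PSAT1 columns against P4, by construction of the limit. In vehicle control against control, 2 members were called in place of 1 with no filter on low counts, with at least 10 counts in every sample, and with a replicate block, and 0 to 3 when 1 replicate was left out. The interaction called 8 members with the columns exchanged as the titles give, where 12040 of all 17738 genes were called. These calls follow from the reversed sign of the difference between the column sets. The causes of the other shifts were not tested.

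Replicate numbers did not pair the samples by the rule used, which asked for at least 3 pairs, each with r above 0.1. The correlation of same-numbered deviations averaged between -0.063 and 0.27 over the comparisons. Nap only against control had 2 pairs, with r of 0.24 and 0.31, and failed the rule only by the number of pairs. With the replicate block the calls over all genes went from 0 to 42 for Nap only, from 0 to 29 for the PSAT1 columns, both against control, from 0 to 1 for the PSAT1_P4 columns against P4, and from 1 to 0 for the interaction, with the members called unchanged in number there. Upper-quartile normalization moved the median log2 fold change of all genes to between -0.12 and 0.10 over the comparisons, and the share of higher genes among calls in P4 against vehicle control from 50.1% to 40.7%. Over all genes, the calls with an absolute log2 fold change above 1 were 2046 of 8774 for P4 against vehicle control, 356 of 3763 for vehicle control against control, 2489 of 9112 for P4 against control, 2611 of 9757 for the PSAT1_P4 columns against control, 2704 of 10339 against the PSAT1 columns, and 2516 of 9641 for the PSAT1 columns against P4. Vehicle control against control had 2038 calls without vehicle control replicate 2 and 1908 without replicate 3, in place of 3763. Counts of 0 over all genes became at most 5 when 1 replicate was left out and at most 14 with no filter on low counts. The single call of the interaction became 10 with no filter, 0 with all groups in one fit, 0 to 4 without 1 replicate and 12040 with the columns exchanged. Depth limits EREG, AREG outside the P4 libraries, and HBEGF.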
